A study of Mus musculus with 8 samples.

Results

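The genes described here are the nuclear-encoded subunits of the oxidative phosphorylation system, with 6 complex I assembly factors that share their name stem. They were chosen by name alone: protein-coding genes whose symbol starts with Nduf, Uqcr, Cox4 to Cox8 or Atp5, or is one of Sdha to Sdhd. This rule found 71 of the 9140 genes in the matrix. By name they were grouped into 32 subunits of complex I, the 6 complex I assembly factors, 3 subunits of complex II, 5 of complex III, 12 of complex IV and 13 of ATP synthase. Ndufa4 was counted with complex IV as one of its subunits, and Cox7a2l was placed there by its name alone.

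Oxidative phosphorylation takes place in the inner mitochondrial membrane. Complexes I and II pass electrons from NADH and succinate to ubiquinone, complex III hands them to cytochrome c, and complex IV passes them to oxygen. Complexes I, III and IV pump protons as they do so, and ATP synthase lets the protons back through its membrane rotor to drive the catalytic head that makes ATP. Neural progenitors are known to rely much on glycolysis while they divide and to shift towards oxidative metabolism as they mature. The subunits encoded in mitochondrial DNA were not analysed here, because the authors left mitochondrial genes out.

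The cells were neural stem and progenitor cells from the microdissected dentate gyrus of mouse embryos, at embryonic day 18 by the labels and day 17 by the study's methods. The embryos came from C57BL/6J females and Kmt2d+/βgeo males. Of the 8 libraries, 4 are labelled Kmt2d+/βgeo and carry the allele Mll2Gt(RRt024)Byg, a gene trap in Kmt2d, which encodes a histone H3 lysine 4 methyltransferase. The other 4 carry the strain label C57BL/6J and are called wild type here. Each genotype label was sampled undifferentiated, in medium with EGF and FGF2 (day 0), and at 2, 4 and 8 days after these were withdrawn, with 1 library for each label and day. All libraries were made with 10x Chromium 3′ v3 chemistry, which counts unique molecular identifiers (UMIs) at the 3′ ends of transcripts. The sources used here do not say how many embryos or cultures went into a library. The library titles name sample 2 on each day under the Kmt2d+/βgeo label and sample 4 on each day in wild type. Whether the days of a label share a culture or an animal is not stated, and the tests over the days below take them as independent. With 1 library for each label and day, a difference on a single day or between days was not tested, and a culture, a litter or a preparation cannot be told apart from a genotype or a day.

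The libraries held 2534 to 4900 cells, 30408 in all. The median depth was 6989 to 11230 UMIs per cell on matrix genes in 7 libraries and 3972 in the day 8 Kmt2d+/βgeo library, the shallowest. Any pair of libraries shared at most 10 cell barcodes. Kmt2d itself was at 0.193, 0.171, 0.295 and 0.290 normalised counts per cell on days 0, 2, 4 and 8 under the Kmt2d+/βgeo label and at 0.157, 0.197, 0.237 and 0.241 under the wild-type label, so its 3′ tags did not separate the labels. Whether those tags lie beyond the trap was not tested. The labels are therefore taken as given, and each direction below is one between libraries labelled in this way. The day 4 pair stood apart from the others. The standard deviation of the log2 ratios of all genes between the labels was 0.11 there, against 0.34, 0.38 and 0.49 on days 0, 2 and 8. Luzp2, which was chosen after its values were seen, was at 0.287, 1.48 and 2.62 normalised counts on days 0, 2 and 8 under the Kmt2d+/βgeo label, at 0.0502 on day 4, and at 0.00824 to 0.0575 in the wild-type libraries. The day 4 library labelled Kmt2d+/βgeo thus went against its label on this gene, and spans, sign counts and tests over the days are given with and without it. Of the marker lists for the cells that such a culture could hold, 5 of 9 progenitor, 3 of 8 neuron, 5 of 8 astrocyte and 1 of 7 oligodendrocyte lineage genes were in the matrix, and 0 of the microglia, endothelium and mesenchyme genes were. Summed astrocyte markers were at 8.20 normalised counts in wild type and 16.2 under the other label on day 0 and at 101 to 252 afterwards, mostly Apoe, whereas the summed neuron markers stayed between 3.07 and 4.46 in all 8 libraries. Apoe alone was at 5.88 in wild type and 14.1 under the other label on day 0. The rest of the astrocyte list was not higher under that label on that day. Summed progenitor markers (Vim, Pax6, Fabp7, Sox9 and Slc1a3) were at 69.9, 118, 86.7 and 122 over the days in wild type and at 79.7, 142, 90.0 and 75.3 under the other label, and Olig2 at 8.09, 6.36, 2.18 and 0.911 and at 5.53, 4.76, 2.31 and 1.48. Top2a was the 1 of 5 dividing cell genes in the matrix. It was at 3.30, 0.0973, 0.142 and 0.122 in wild type and at 3.50, 0.108, 0.135 and 0.0550 under the other label.

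Transcription factors known to act at many of these genes include NRF1, the ETS family member GABPA and YY1. Promoter windows, around the RefSeq start of a gene and mostly upstream of it (build GRCm38.p6), were found for 58 of the 71 genes and searched on both strands for GCATGCGC (NRF1), CCGGAAG (ETS) and ATGGCGGC (YY1). The NRF1 letters were in 10 of the 58 genes (17.2%), against 6.63% of the other 7198 genes of the matrix and 2.71% of all 32851 promoters. The ETS letters were in 14 (24.1%), against 21.5% and 8.86%, and the YY1 letters in 5 (8.62%), against 6.46% and 2.24%. Counted by promoter, 16.1%, 22.6% and 9.68% of the 62 windows of these genes held the NRF1, ETS and YY1 letters. A match is a run of letters and does not show that a factor binds there. Atp5k and Atp5md are printed because they are among the genes that differed most between labels on day 2, and Uqcrc1 because it did so on day 8. The windows are at chr5:108434350-108434649 on the minus strand, chr19:47090598-47090897 on the minus strand and chr9:108936398-108936697 on the plus strand. They run 5′ to 3′ along the gene, and capitals mark the matches. Where the NRF1 letters match on both strands the matches overlap and the capitals run over both.
Atp5k, NRF1 and ETS: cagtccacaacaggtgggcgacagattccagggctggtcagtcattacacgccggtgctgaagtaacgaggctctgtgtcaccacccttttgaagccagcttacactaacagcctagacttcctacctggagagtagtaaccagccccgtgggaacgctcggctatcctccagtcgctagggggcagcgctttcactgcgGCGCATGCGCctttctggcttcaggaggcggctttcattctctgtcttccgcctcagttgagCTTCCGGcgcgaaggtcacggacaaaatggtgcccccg
Atp5md, ETS: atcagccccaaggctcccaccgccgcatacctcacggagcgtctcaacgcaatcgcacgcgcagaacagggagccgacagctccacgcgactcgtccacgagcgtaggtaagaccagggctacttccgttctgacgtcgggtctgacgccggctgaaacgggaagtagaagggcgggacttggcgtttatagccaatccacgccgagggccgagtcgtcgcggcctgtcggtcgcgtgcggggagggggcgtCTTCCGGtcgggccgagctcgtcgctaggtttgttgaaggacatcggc
Uqcrc1, NRF1: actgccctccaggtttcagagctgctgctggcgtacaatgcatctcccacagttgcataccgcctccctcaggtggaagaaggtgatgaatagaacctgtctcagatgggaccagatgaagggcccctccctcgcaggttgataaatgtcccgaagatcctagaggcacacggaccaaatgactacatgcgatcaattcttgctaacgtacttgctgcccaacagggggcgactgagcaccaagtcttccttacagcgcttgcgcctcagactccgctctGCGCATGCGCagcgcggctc
The NRF1 letters were in 2 of these 3 windows, which were picked and do not give a share. The windows of Ndufa3 and Cox6b2, also among the genes that differed most, held none of the searched letters. That of Ndufa9, another such gene, held the YY1 letters only.

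The 71 genes together took 4.24% of the normalised counts of a wild-type cell on day 0, 4.31% on day 2, 4.93% on day 4 and 4.81% on day 8. Under the Kmt2d+/βgeo label they took 4.65%, 3.57%, 4.46% and 5.37%. The wild-type series spanned 0.69 percentage points over the 4 days, or 0.57 without day 4. The Kmt2d+/βgeo series spanned 1.80 with or without day 4, with its lowest value on day 2 and its highest on day 8. Its rise from day 0 to day 8 was 0.21 on the log2 scale of the sum, but the mean over the 71 genes of the difference in mean deposited log2 values was -0.16 and the length-centred median -0.16, so that direction depends on the scale. A normalised count is a cell's UMI count scaled so that the matrix genes sum to the same total in every cell, so a level here is a share of the messenger RNA captured on these genes. The denominator moved too: the 44 cytosolic ribosomal protein genes went from 18.7% of counts on day 0 to 7.20% on day 8 in wild type and from 18.8% to 10.3% under the Kmt2d+/βgeo label. Without those genes in the denominator the 71 genes took 5.22%, 4.95%, 5.44% and 5.19% in wild type and 5.73%, 4.11%, 4.88% and 5.99% under the other label.

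Counting error was small beside these differences. The summed log2 ratio of Kmt2d+/βgeo over wild type was 0.13 on day 0, -0.27 on day 2, -0.14 on day 4 and 0.16 on day 8. The ratio of summed UMIs, which weights deep cells more, had an exact 95% interval of 0.13 to 0.14 on day 0, -0.28 to -0.27 on day 2 and 0.20 to 0.21 on day 8. These intervals, like all those below, cover counting error only and not the spread between cultures, which 1 library per group does not show. Set against each other over the 4 days, with the days as pairs, the labels differed by a mean of -0.032 ± 0.21 (SD, 4 pairs), with an exact two-sided permutation p of 0.875, where 0.125 is the smallest that 4 pairs allow. Without day 4 the mean was 0.0059 with a p of 1, where 3 pairs allow no p below 0.25 in this exact permutation test. Under the Kmt2d+/βgeo label complex I, complex III, complex IV and ATP synthase were each at their lowest on day 2, and the sums of complexes I, III and IV at their highest on day 8, as the plot of each complex by day shows. These sums weight abundant genes, and over single genes from day 0 to day 8 the median log2 ratio was 0.045 in complex I, with 15 of 32 below 0, -0.27 in complex III, with 3 of 5 below 0, and 0.20 in complex IV, with 4 of 12 below 0. ATP synthase was at 1.26% on day 8 and 1.24% on day 0, and without the ribosomal protein genes in the denominator at 1.41% and 1.53%.

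**Figure D1:**
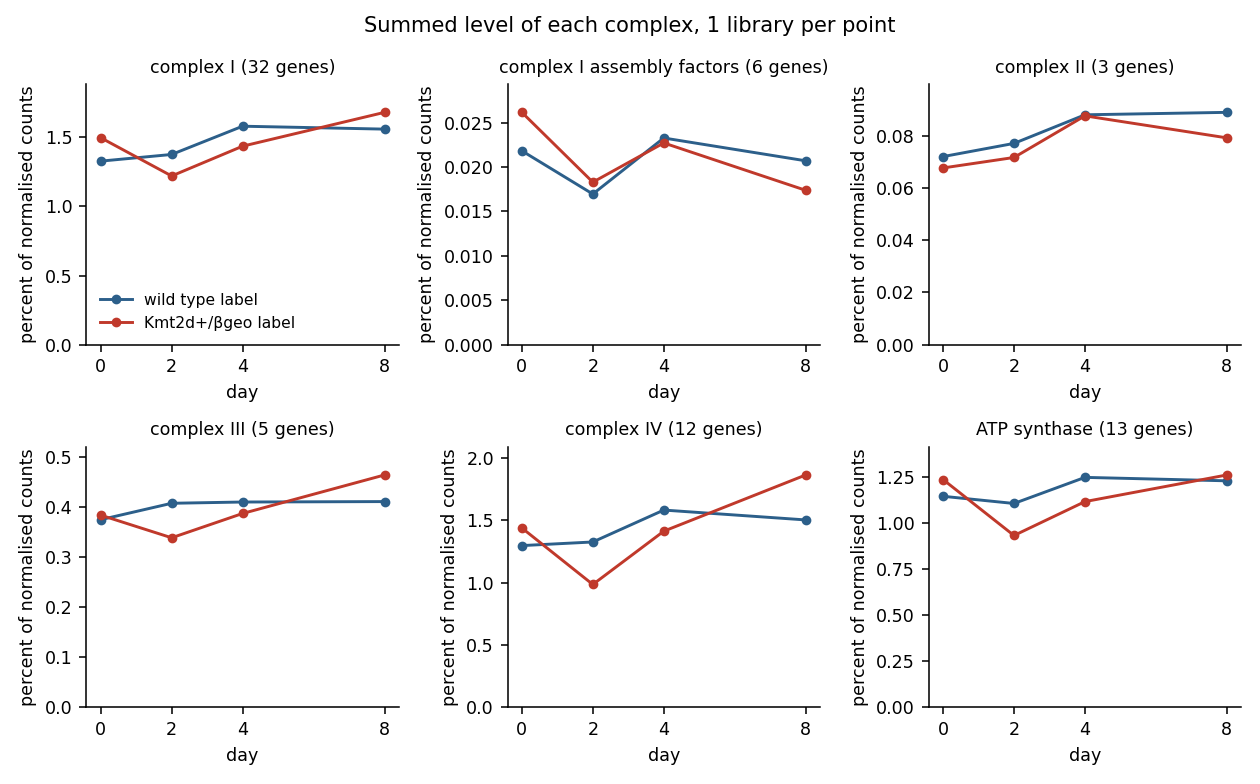
Summed level of the genes of each complex as a percent of normalised counts (y axis, from 0) on days 0, 2, 4 and 8 (x axis), with 1 library per point and no replicate error. Complex IV under the Kmt2d+/βgeo label (red) was at 0.985% on day 2 and 1.86% on day 8, while wild type (blue) was at 1.33% and 1.50%.

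Within the groups the genes did not move as 1 block. The map of the genes over the 8 libraries shows a day 2 column under the Kmt2d+/βgeo label in which short transcripts of complexes I and IV and of ATP synthase were low, and a day 8 column in which many short ones were high and many long ones low. A gene is called higher or lower below where its log2 ratio was at least 0.5 in size, in 10 comparisons that set the labels against each other on each day, or each later day against day 0 within a label. Of the 71 genes, 8 (11.3%) passed in none of these, against 18.0% of the 6552 genes compared in all 10. Without the comparisons that use day 4 it was 9 (12.7%), with Sdhc added, against 20.9%. The 8 were Ndufs3, Ndufb5, Ndufv2 and Ndufb11 of complex I, Sdhb of complex II, Uqcrh of complex III, Cox5a of complex IV and Atp5j of ATP synthase.

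**Figure D2:**
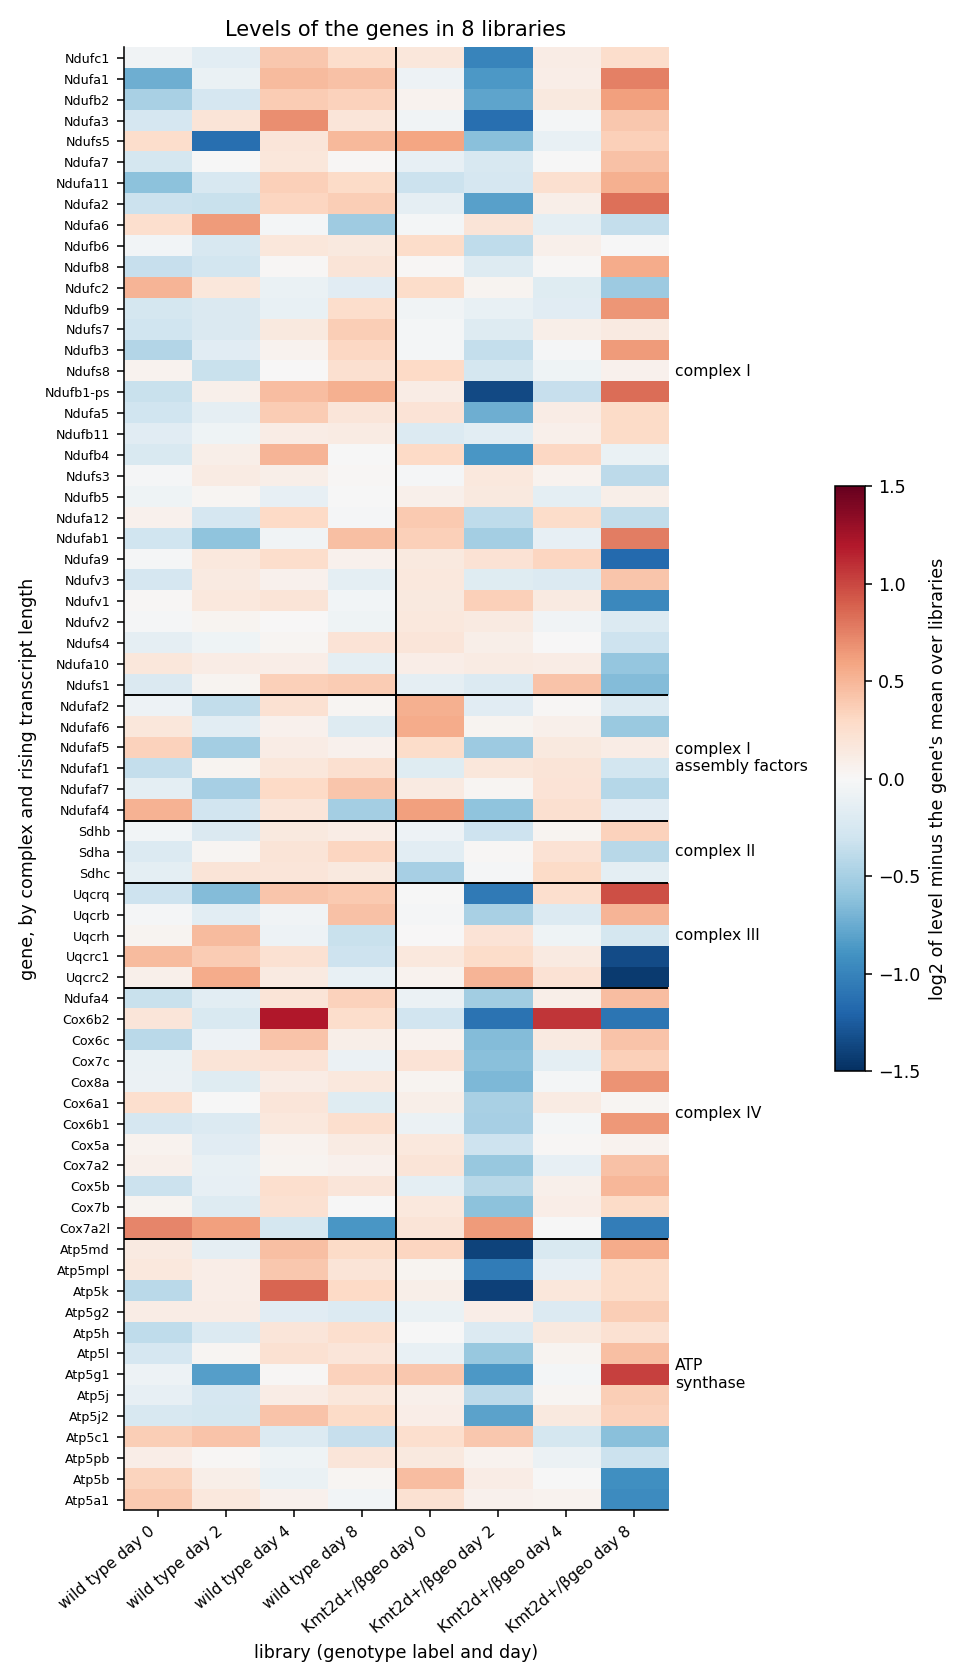
Log2 of each gene's normalised count minus its own mean over the 8 libraries (colour, clipped at 1.5 either way), with genes as rows by complex and rising transcript length and libraries as columns. A gene not reported by name is left out. Atp5k, Atp5md and Ndufb1-ps were lowest in the day 2 library labelled Kmt2d+/βgeo, and Uqcrc1 and Uqcrc2 in the day 8 library of that label.

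The abundant genes of the larger complexes followed different courses. Cox8a, a small complex IV subunit and the most abundant of the 71, was at 22.1, 20.7, 25.4 and 26.3 normalised counts on days 0, 2, 4 and 8 in wild type and at 24.1, 14.7, 23.0 and 37.5 under the other label. Ndufa4 went from 14.2 on day 0 to 22.8 on day 8 in wild type and from 16.9 to 24.7 under the other label, with 12.4 on day 2. Both were highest on day 8 in either label. Uqcrh, the hinge protein of complex III, was at 12.5, 16.9, 11.6 and 9.64 in wild type and at 12.2, 14.1, 11.6 and 10.1 under the other label, highest on day 2 in both. Ndufc2, a membrane arm subunit of complex I, was at 15.4, 12.1, 10.0 and 9.64 and at 13.1, 11.1, 9.51 and 7.42, and it fell at each step in both. Atp5j2, subunit f of ATP synthase, was at 8.79, 8.68, 14.0 and 12.7 and at 11.2, 5.94, 11.5 and 13.2. Levels of different genes are not ranked further, since a 3′ tag count depends on how well a transcript end is captured, and reads shared with near-identical copies of these genes could not be checked.

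In the undifferentiated cells most of the genes were somewhat higher under the Kmt2d+/βgeo label. On day 0, 51 of 71 had a log2 ratio above 0 and the median was 0.17, against -0.04 over all 7117 genes compared. Other short genes were also above 0, with medians of 0.17, 0.15 and 0.11 for those under 500, of 500 to 700 and of 700 to 1000 bases, and the length-centred median of the 71 was 0.09. Past 0.5, 6 were higher, where 3.48% of all genes were, and 1 was lower, where 6.08% of all genes were. The 6 were Ndufa1, Ndufab1, Ndufaf2, Ndufb2, Ndufb4 and Ndufa5, all of complex I or its assembly. Ndufab1, the mitochondrial acyl carrier protein that is also a complex I subunit, was at 5.22 normalised counts under the Kmt2d+/βgeo label and 3.32 in wild type, a log2 ratio of 0.65. Ndufa1, an accessory subunit encoded on the X chromosome, was at 2.29 and 1.45 (0.66). Ndufaf2, which helps to build complex I, was at 0.574 and 0.375 (0.62). With the difference of mean log2 values in place of the ratio of means 1 gene was past 0.5 in place of 7, and after centring by transcript length 4 were. The 1 lower gene was Cox7a2l, a relative of Cox7a2, at 5.24 and 7.60 normalised counts (-0.54).

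On day 2 the 2 labels differed most in the small subunits. Past 0.5, 15 genes were lower under the Kmt2d+/βgeo label, where 5.28% of all genes compared were lower, and 1 was higher, Ndufaf7, where 5.47% of all genes were. Of the 15, 7 belonged to complex I, 5 to ATP synthase and 3 to complex IV. All 15 were among the 43 genes with a transcript under 1000 bases, with 7 under 500, 4 of 500 to 700 and 4 of 700 to 1000 bases. Of other genes in these length ranges 27.7%, 11.9% and 2.37% were lower past 0.5. The summed astrocyte markers were at 214 normalised counts under that label and 158 in wild type on this day, with Apoe alone at 210 and 150. The rest of that list thus summed to less under that label than in wild type. The progenitor markers were at 142 and 118 and Olig2 at 4.76 and 6.36. The part of these markers in the result was not tested. Values in every library are given for the 5 lowest genes.

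Atp5k, the small subunit e of the ATP synthase membrane part, was at 1.56, 2.22, 3.81 and 2.56 normalised counts on days 0, 2, 4 and 8 in wild type and at 2.20, 0.783, 2.34 and 2.51 under the Kmt2d+/βgeo label. The day 2 library of the second series was the lowest of the 8, and the log2 ratio on that day was -1.50, with an interval of the ratio of summed UMIs from -1.56 to -1.44. Atp5md, the DAPIT subunit of the same membrane part, was at 4.22, 3.50, 5.28 and 4.72 in wild type and at 4.84, 1.47, 3.28 and 5.69 under the other label (log2 ratio on day 2 -1.25). Atp5mpl, also a small membrane subunit, was at 7.72, 7.40, 9.17 and 7.94 in wild type and at 7.12, 3.33, 6.38 and 8.36 under the other label (-1.15). For all 3 the Kmt2d+/βgeo library of day 2 lay below each of the other libraries.

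Among complex I subunits, Ndufb1-ps, which this annotation lists as protein-coding in spite of its name, was at 1.56, 2.07, 2.71 and 2.82 normalised counts in wild type and at 2.12, 0.767, 1.54 and 3.48 under the Kmt2d+/βgeo label (-1.43 on day 2). Ndufa3, an accessory subunit of the membrane arm, was at 2.12, 2.89, 4.10 and 2.86 in wild type and at 2.43, 1.16, 2.48 and 3.34 under the other label (-1.32). Both were at least as high under the Kmt2d+/βgeo label as in wild type on days 0 and 8, so the order of the labels turned with the day. In complex IV, Cox6c, Cox7c and Cox6b2 were the 3 past the threshold on day 2. Cox7c was at 16.5 normalised counts in wild type and 9.38 under the Kmt2d+/βgeo label (-0.81), and Cox6c at 12.6 and 8.40 (-0.58). Cox6b2, known as a testis form, was at 1.31, 0.980, 2.64 and 1.38 over the 4 days in wild type and at 0.941, 0.534, 2.41 and 0.539 under the other label. Its ratio was -0.88 on day 2 and -1.36 on day 8, the lowest of complex IV on day 2 and of all 71 genes on day 8, and it was lower under the Kmt2d+/βgeo label on each day. The other genes of complex IV had ratios of -0.49 to 0.03, and 11 of the 12 were below 0.

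The 7 nuclear-encoded core subunits of complex I, which carry its redox centres or sit beside them, Ndufs1 and Ndufv1 among them, had log2 ratios of -0.25 to 0.20 on day 2, with a median of 0.04 and 0 past the threshold in either direction. The 25 accessory subunits ran from -1.43 to 0.49, with a median of -0.14 and 7 lower, where 5.28% of all genes were lower, so the range of the core lay within theirs. The 3 subunits of the catalytic F1 head of ATP synthase in the matrix, Atp5a1, Atp5b and Atp5c1, had ratios of -0.09, 0.02 and -0.02, and the 10 other subunits had a median of -0.35 and 5 lower, to be read against the same 5.28%. These splits into core and accessory, and head and other, follow textbook composition but were made after the values were seen. Role was not separated from transcript length in them.

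From day 0 to day 2 many of the genes fell by at least 0.5 under the Kmt2d+/βgeo label and few did in wild type. In the first series 30 of the 71 genes were lower past 0.5, where 19% of all genes compared were, and 1 was higher, where 25.4% were. Of the 30, 24 had a transcript under 1000 bases. These were 8 of the 11 genes under 500 bases, 11 of the 22 of 500 to 700 and 5 of the 10 of 700 to 1000. Of other genes in these length ranges 35.9%, 31.5% and 15.8% were lower. The median was -0.42, against 0.05 over all genes. In wild type over the same interval 4 were lower, where 18.3% of all genes were, and 2 higher, where 20.7% were, and the median was 0.05. The largest falls under the Kmt2d+/βgeo label were those of Atp5md (-1.72), Atp5k (-1.49), Ndufb1-ps (-1.47), Atp5g1 (-1.26) and Ndufs5 (-1.22). Atp5k and Ndufa1 moved past the threshold in opposite directions in the 2 labels: Atp5k by 0.51 in wild type against -1.49, and Ndufa1 by 0.63 against -0.79. Over all 7303 genes compared in both labels 0.110% did so. Lower in both were 4 of the 71 (5.63%), where 14.5% of all genes were, namely Ndufaf5, Ndufaf4, Ndufs5 and Atp5g1. Ndufs5, an accessory subunit, went from 1.70 to 0.649 normalised counts in wild type (-1.39) and from 2.13 to 0.915 under the other label. Over the same interval Top2a went from 3.30 to 0.0973 in wild type and from 3.50 to 0.108 under the other label. Summed astrocyte markers went from 8.20 to 158 and from 16.2 to 214, and Apoe alone from 5.88 to 150 and from 14.1 to 210. The part of these in the results was not tested.

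**Figure D3:**
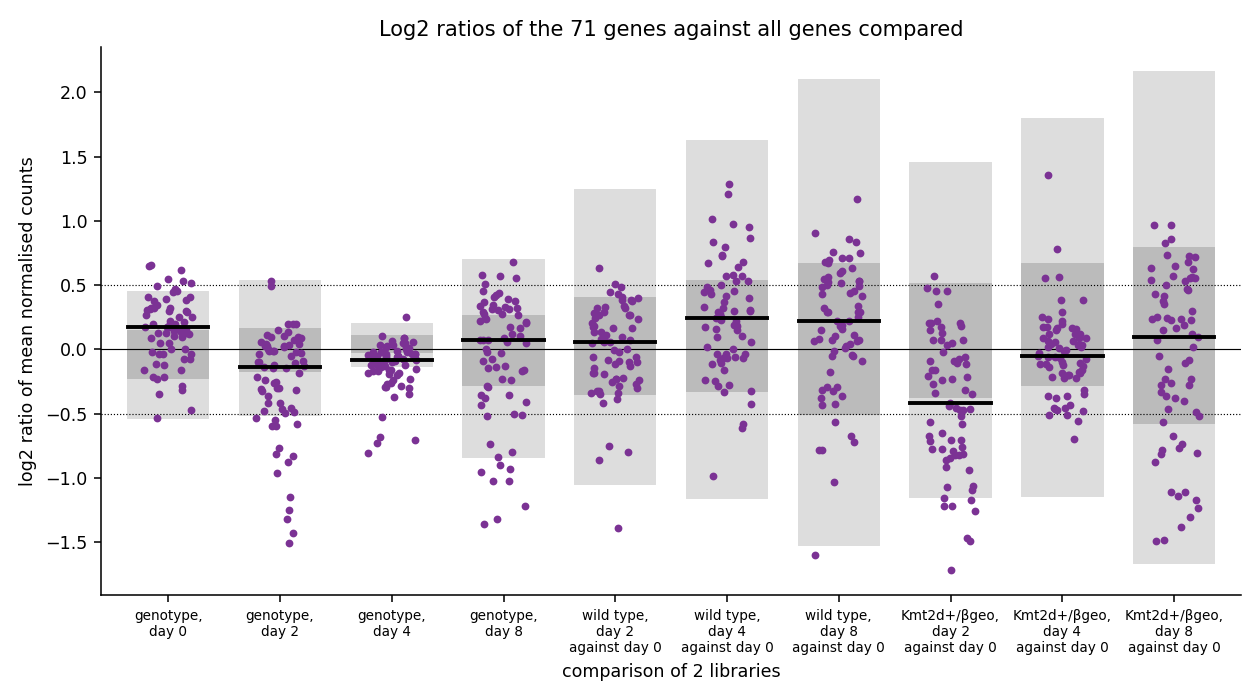
Log2 ratios of mean normalised counts (y axis) of the 71 genes (points, black bar at their median) in each comparison of 2 libraries (x axis), over the range between the quartiles (dark grey) and the 5th to 95th percentile (light grey) of all genes compared. The median of the 71 genes was -0.42 from day 0 to day 2 under the Kmt2d+/βgeo label, below all genes at 0.05, and the grey bands were narrowest for the labels on day 4.

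On day 4 the labels hardly differed over the transcriptome, and the genes past the threshold were few. Past 0.5, 5 of the 71 were lower under the Kmt2d+/βgeo label, where 0.349% of all 7459 genes compared were, and 0 were higher, where 0.0268% were. The 5 were Ndufb1-ps (-0.81), Ndufa3 (-0.73), Atp5k (-0.71), Atp5md (-0.69) and Atp5mpl (-0.52), the same 5 that were lowest on day 2, and 57 of the 71 were below 0. All genes lower past 0.5 on this day numbered 26. Of the 5, 3 had a transcript under 500 bases, 1 was of 500 to 700 and 1 of 700 to 1000 bases. Of other genes in these length ranges 11.1%, 2.46% and 1.39% were lower past 0.5. The doubt about this library stands beside these values, and the part that it plays in them was not tested.

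From day 0 to day 4 in wild type, 18 of the 71 genes (25.4%) were higher past 0.5, where 26.4% of all genes compared were, and 3 (4.23%) were lower, where 17.7% were. The share of higher genes was thus near that of all genes. Atp5k (1.29), Ndufa1 (1.21), Cox6b2 (1.01), Ndufa11 (0.98) and Ndufa3 (0.95) were highest, and Cox7a2l (-0.99), Ndufc2 (-0.61) and Atp5c1 (-0.58) were the 3 lower genes. Under the Kmt2d+/βgeo label on day 4, 4 were higher, where 31.9% of all genes were, and 4 lower, where 16.6% were. Cox6b2 (1.36) and Sdhc (0.78) led the first 4 and Ndufs5 (-0.70) the second. The median of the 71 genes was -0.05 in that comparison, below that of all genes, 0.17. The 8 past the threshold became 1 with the difference of mean log2 values, 14 when scaled to total UMIs and 16 when ribosomal protein genes were left out of the denominator or when centred on all genes.

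By day 8 the wild-type series held 21 genes higher than on day 0 past 0.5, where 30.6% of all genes compared were, and 7 lower, where 25.1% were. Under the Kmt2d+/βgeo label 17 were higher, where 34.8% of all genes were, and 18 were lower, where 27.1% were. Higher in both labels were 12 of the 71 (16.9%), where 25.5% of the 7572 genes compared in both were: Ndufa1, Ndufa2, Ndufa11, Ndufb1-ps, Ndufb2, Ndufb3, Ndufb8 and Ndufb9 of complex I, Uqcrq of complex III, and Ndufa4, Cox5b and Cox6b1 of complex IV. Ndufa1 was at 1.45, 2.25, 3.35 and 3.27 normalised counts over the 4 days in wild type and at 2.29, 1.32, 2.58 and 4.06 under the Kmt2d+/βgeo label. Ndufa2 was at 6.63, 6.59, 10.4 and 10.7 in wild type and at 7.52, 4.70, 8.85 and 14.7 under the other label. For both genes day 8 was above day 0 in either label, and day 2 was the lowest of the Kmt2d+/βgeo series.

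Lower in both labels on day 8 were 6 of the 71 (8.45%), where 19.5% of all genes were, with Ndufc2, Ndufaf4, Uqcrc1, Cox7a2l and Atp5c1 among them. Cox7a2l was at 7.60, 7.03, 3.83 and 2.50 normalised counts in wild type and at 5.24, 7.16, 4.56 and 2.23 under the Kmt2d+/βgeo label, a log2 ratio of day 8 over day 0 of -1.60 and -1.23. Atp5c1, the central stalk subunit that turns inside the F1 head, was at 10.0, 10.3, 6.67 and 6.07 in wild type and at 9.18, 10.2, 6.44 and 4.99 under the other label. In these 2 genes the largest step down in normalised counts came between day 2 and day 4 in both series. As a ratio, the fall of Cox7a2l under the Kmt2d+/βgeo label was larger from day 4 to day 8. For that label both steps rest on the doubted day 4 library.

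Between the labels on day 8, 4 of the 43 genes under 1000 bases were higher and 1 lower past 0.5, and 1 of the 28 longer genes was higher and 13 were lower. Over all 71 genes, 14 genes were lower under the Kmt2d+/βgeo label, where 13.1% of all 7576 genes compared were, and 5 were higher, where 10.2% were. Of the 14, 13 had a transcript of 1000 bases or more, and Cox6b2 was the other. Of other genes under 500, of 500 to 700 and of 700 to 1000 bases, 4.17%, 3.08% and 8.78% were lower past 0.5. At 1000 to 1500, 1500 to 2500 and 2500 to 5000 bases, 18.5%, 21.2% and 12.1% of other genes were. The 5 higher genes were Atp5g1 (0.68), Atp5g2 (0.58), Uqcrq (0.57), Ndufv3 (0.56) and Cox8a (0.51). The summed level was higher under the Kmt2d+/βgeo label (0.16) and the median over genes was 0.07, although 32 of the 71 were below 0. The 43 genes under 1000 bases made up 4.56 of the 5.37% of counts in that library. The mean over the 71 genes of the difference in mean deposited log2 values was -0.14, of the opposite sign, so the direction on day 8 depends on the scale. After thinning every cell to 3000 UMIs the log2 ratio of the sum was 0.24. Beside it, the summed astrocyte markers were at 101 normalised counts under the Kmt2d+/βgeo label and 238 in wild type, with Apoe alone at 94.7 and 230. The progenitor markers were at 75.3 and 122 and Olig2 at 1.48 and 0.911. The part of these, of the ribosomal protein share and of the lower depth of the Kmt2d+/βgeo library in the day 8 results was not tested.

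Uqcrc1 and Uqcrc2 are the large core proteins of complex III. Uqcrc1 was at 2.79, 2.62, 2.35 and 1.62 normalised counts in wild type over the 4 days and at 2.24, 2.44, 2.20 and 0.795 under the Kmt2d+/βgeo label. Uqcrc2 was at 2.21, 3.09, 2.30 and 1.95 in wild type and at 2.17, 2.98, 2.44 and 0.779 under the other label. Both had the lowest of their 8 values on day 8 under the Kmt2d+/βgeo label, with log2 ratios between labels of -1.03 and -1.32, and in the other 7 libraries the values lay between 1.62 and 3.09. Uqcrq, a small subunit of the same complex, was at 7.04, 5.57, 11.7 and 11.5 in wild type and at 8.72, 4.17, 10.4 and 17.1 under the other label. The lowest of its 8 values was that of day 2 and the highest that of day 8, both under the Kmt2d+/βgeo label.

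The 7 core subunits of complex I were all below 0 on day 8, with a median log2 ratio of -0.41 and 3 lower past the threshold, where 13.1% of all genes were. Ndufs1, the largest iron-sulphur subunit of complex I, was at 0.707, 0.849, 1.06 and 1.07 in wild type and at 0.751, 0.714, 1.11 and 0.525 under the Kmt2d+/βgeo label (-1.03). Ndufv1, which binds NADH, was at 1.63, 1.79, 1.84 and 1.57 and at 1.78, 2.06, 1.77 and 0.826 (-0.93). For both the ratios between labels lay between -0.25 and 0.20 on days 0, 2 and 4. Ndufa9, an accessory subunit, was lower still (-1.22), at 0.515 normalised counts against 1.20 in wild type. The accessory subunits as a whole had a median of 0.17, with 2 lower and 1 higher, where 13.1% and 10.2% of all genes were. Core and accessory sets were made after the values were seen, and role was not separated from transcript length.

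In ATP synthase, Atp5b, the catalytic beta subunit, was at 10.7, 9.04, 7.96 and 8.70 normalised counts in wild type and at 11.7, 9.18, 8.44 and 4.49 under the Kmt2d+/βgeo label, a ratio of -0.95 on day 8. Atp5a1, the alpha subunit of the same head, was at 8.30, 7.09, 6.64 and 6.14 and at 7.43, 6.64, 6.59 and 3.30 (-0.90). The 2 genes in the matrix that encode subunit c, of the membrane ring, went the other way. Atp5g3, which encodes it too, was not analysed here. Atp5g1 was at 4.99, 2.96, 5.33 and 6.66 in wild type and at 6.93, 2.89, 5.13 and 10.7 under the Kmt2d+/βgeo label, and Atp5g2 at 9.25, 9.26, 7.62 and 7.40 and at 7.97, 9.16, 7.40 and 11.0. In the day 8 library labelled Kmt2d+/βgeo, Atp5a1, Atp5b and Atp5c1 were thus at their lowest of the 8 libraries and Atp5g1 and Atp5g2 at their highest.

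Complex II, which is also an enzyme of the TCA cycle, has no subunit in mitochondrial DNA. Sdha, its flavoprotein with the succinate site, was at 1.79, 2.12, 2.36 and 2.58 normalised counts in wild type and at 1.85, 2.10, 2.41 and 1.54 under the Kmt2d+/βgeo label. The 2 series ran side by side until day 4 and parted on day 8, with a ratio of -0.74. Sdhb, the iron-sulphur subunit, was at 2.80, 2.47, 3.19 and 3.10 and at 2.72, 2.31, 2.95 and 3.67, and Sdhc, a membrane anchor, at 1.68, 2.12, 2.11 and 2.05 and at 1.32, 1.83, 2.26 and 1.68. Neither passed the threshold between labels on any day. Sdhd, the other anchor, was not analysed here.

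The assembly factors are not part of the finished complex I and are expressed at low levels, with 172 estimated UMIs or more per gene and library. Their summed level was lower on day 2 than on day 0 in both labels, by -0.36 in wild type and -0.52 under the Kmt2d+/βgeo label, where the subunits of complex I went by 0.05 and -0.29. On day 8 against day 0 the 6 were all below 0 under the Kmt2d+/βgeo label, with 4 lower past the threshold, where 27.1% of all genes were. In wild type 3 were below 0, and past the threshold 2 were higher and 1 lower, where 30.6% and 25.1% of all genes were. Ndufaf4 was at 0.586, 0.336, 0.465 and 0.287 normalised counts in wild type and at 0.627, 0.270, 0.482 and 0.364 under the other label, falling from day 0 to day 2 in both. Ndufaf7, a methyltransferase, went by 0.56 in wild type and by -0.56 under the Kmt2d+/βgeo label from day 0 to day 8. Its day 8 library held 287 UMIs of the gene under that label, and the labels differed by -0.84 that day, with an interval of the ratio of summed UMIs from -0.89 to -0.50. Ndufs1 was the only other gene past the threshold in opposite directions over this span, at 0.60 and -0.52.

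No gene of the 71 was past 0.5 with 1 sign in the label comparison on days 0, 2 and 8, where 1.84% of all 6635 genes compared on those days were. A plain sign was kept on all 4 days by 5 genes, Atp5c1, Atp5a1, Ndufc2, Cox6b2 and Uqcrc1, all lower under the Kmt2d+/βgeo label, where 4.20% of all genes were, and by 0 genes higher, where 8.34% were. Without day 4 the counts were 7 lower, with Sdhc and Uqcrc2 added, against 19.7% of all genes, and 4 higher, Ndufb5, Ndufab1, Ndufb8 and Ndufb9, against 15.4%. Of the 71, 35 were below 0 on day 2 and above 0 on day 8, against 1765 of all 7067 genes compared on both days. Past 0.5 on both of these days 0 of the 71 turned in this way, against 0.283% of all genes. Past the threshold in opposite directions on different days were 5 (Ndufa1, Ndufa5, Ndufb2, Ndufb4 and Ndufaf7), against 1.32% of all genes.

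Over the 4 days together each gene was tested with limma on log2(normalised count + 0.1), with the day as a block, so that a gene whose order of labels turns with the day adds to the error. At an adjusted p under 0.05 this called 0 of the 71 and 0% of all 8079 genes, and at an unadjusted p under 0.05 it marked 2 and 630. The 2 were Cox6b2, at a mean log2 ratio of -0.64 with a standard error of 0.17 (limma adjusted p = 0.50), and Uqcrc1, at -0.36 with a standard error of 0.15 (limma adjusted p = 0.64). Without day 4 it called 64 genes, 0.792% of all, and 0 of the 71, with Cox6b2 at -0.81 (limma adjusted p = 0.10). This fit takes the days of a label as independent, and the sources do not say whether they are.

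The relation to transcript length was looked at after these values had been seen. Lengths were those of the shortest principal protein-coding transcript in GENCODE M21, and the 71 genes had a median of 763 bases, against 3059.5 for the other genes in the matrix. Across the 71 genes, which are not independent of each other, Spearman's correlation between length and the log2 ratio of the labels was -0.27, 0.54, 0.67 and -0.54 on days 0, 2, 4 and 8. The longest principal transcript had been used first and gave smaller values, -0.07, 0.41, 0.50 and -0.38, and the shortest was adopted after both sets were known; 54 of the 71 genes had the same length under both. Over the other genes the correlation was -0.22, -0.28, 0.34 and 0.06 with the shortest transcript. The correlation was thus positive in the 71 genes on day 2 and negative in the others, and near 0 in the others on day 8. The others are mostly longer, however, and among the shorter of them the medians went the same way as in the 71. On day 2 these were -0.26, 0.07 and 0.18 under 500, of 500 to 700 and of 700 to 1000 bases. On day 8 they fell from 0.31 under 500 bases to -0.04 at 1000 to 1500 and -0.09 at 1500 to 2500 bases.

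Genes of like length that are not members give the scale for this. On day 2 the 11 genes under 500 bases had a median log2 ratio of -0.77 and 65 other genes of that length one of -0.26, and the 22 genes of 500 to 700 bases were at -0.28 against 0.07. On day 8 the 12 genes of 1500 to 2500 bases had a median of -0.82 and 9 lower past 0.5, against a median of -0.09 over 1578 other genes, of which 334 (21.2%) were lower past 0.5. The 43 genes under 1000 bases had a median of 0.21 on day 8, and after subtracting the median of other genes in the same twentieth of lengths it was -0.01, whereas the 28 longer ones were at -0.42 before and after. By length range on day 8, the 11 genes under 500 bases were at 0.12 against 0.31 for 72 other genes, the 22 of 500 to 700 bases at 0.24 against 0.28, and the 10 of 700 to 1000 bases at 0.14 against 0.10. Over all 71 genes the length-centred median was 0.09, -0.23, -0.06 and -0.14 on days 0, 2, 4 and 8, and on day 8 its sign was opposite to that of the uncentred median and of the summed level. With the longest transcript it was 0.09, -0.26, -0.06 and -0.10.

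**Figure D4:**
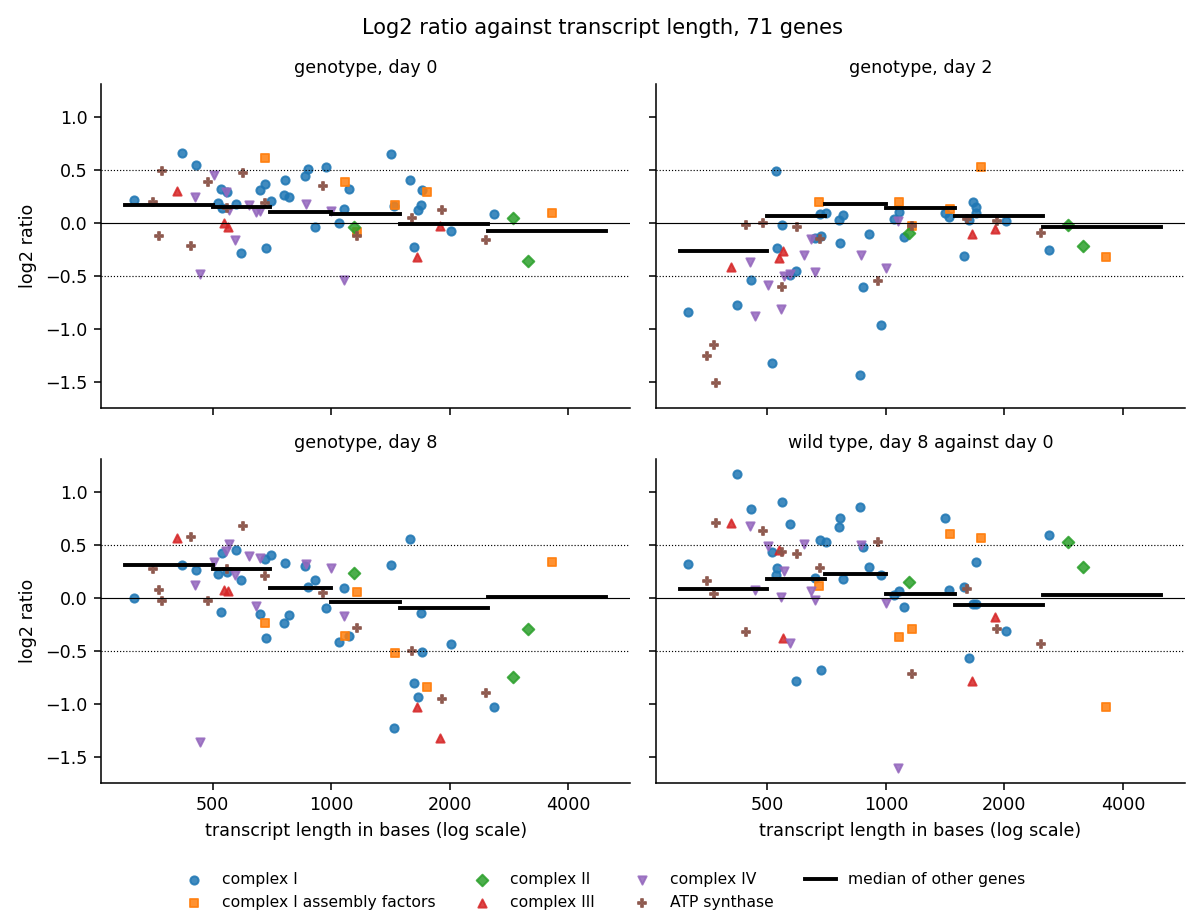
Log2 ratio (y axis) of each of the 71 genes against its transcript length in bases (x axis, log scale) in 4 comparisons, with marker shapes for the complexes and black steps for the median of other genes in each length range. Between the labels the short genes were low on day 2, and on day 8 the genes of 1500 to 2500 bases were low, with a median of -0.82 where other genes were at -0.09.

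The named pairs of related subunits also shifted. Atp5g1 and Atp5g2 encode the same mature subunit c with different import signals. Atp5g1 made up 35.6%, 24.7%, 41.7% and 47.7% of the UMIs of the pair on days 0, 2, 4 and 8 in wild type and 46.9%, 24.5%, 41.4% and 49.6% under the Kmt2d+/βgeo label. The share fell to day 2 and rose to day 8 in both, and the widest exact 95% interval was 49.1% to 50.2%. Cox6b2 was 10.9%, 8.42%, 16.3% and 8.20% of Cox6b2 and Cox6b1 in wild type and 7.29%, 5.90%, 16.7% and 2.55% under the other label, highest on day 4 in both and, with day 4 left out, on day 0 in both. Cox7a2l was 44.4%, 45.7%, 29.3% and 21.3% of Cox7a2l and Cox7a2 in wild type and 34.1%, 54.3%, 35.6% and 15.4% under the Kmt2d+/βgeo label. Cox5a and Cox5b are different subunits, and the share of Cox5a lay between 43.0% and 57.6% in all 8 libraries, highest on day 0 in both labels.

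**Figure D5:**
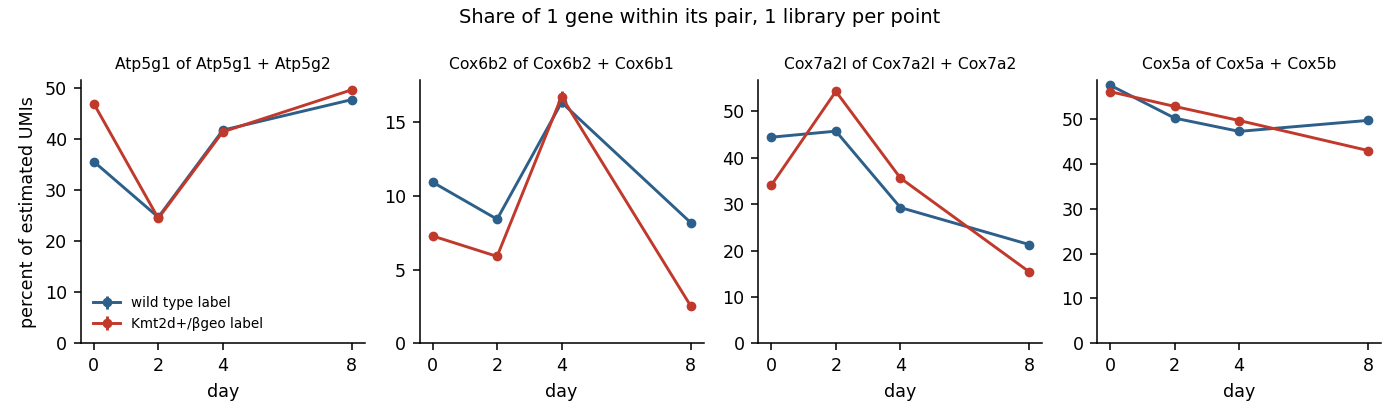
Percent of estimated UMIs of a pair of genes that came from the first (y axis, from 0) by day (x axis), with 1 library per point and exact 95% counting intervals, most of them smaller than the points. The Atp5g1 share was lowest on day 2 in both labels, at 24.7% and 24.5%.

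Genes of related pathways were read from lists chosen with earlier results of these data known, and their counts are descriptions. They are to be read against the 13.1% lower and 10.2% higher among all genes on day 8 and the 5.28% lower on day 2. On day 8 the 17 genes of the TCA cycle and pyruvate dehydrogenase had a median log2 ratio between labels of -0.56 with 9 lower and 0 higher, Suclg1 (-1.23) and Mdh2 (-0.71) among them. The 12 glycolysis and lactate genes, of which 11 were compared, had a median of -0.88 with 8 lower, Eno1 (-0.88) and Pkm (-0.68) included. The 48 mitochondrial ribosomal protein genes had a median of -0.03 with 7 higher and 7 lower, and the 44 cytosolic ones a median of 0.41 with 17 higher and 0 lower. On day 2, where the short subunits were low, the mitochondrial ribosomal genes had a median of 0.13 with 1 lower, and the cytosolic ones 0.09 with 9 lower. Tomm7, a small subunit of the import pore, was at -0.82 and Rpl41, a very short ribosomal protein gene, at -0.61 on that day. The 31 other respiratory chain and assembly genes, of which 27 were compared on day 2, had a median of 0.03 there with 3 lower, and Cyc1 (-0.12), Atpif1 (-0.13) and Higd1a (-0.31) were not past the threshold. They had a median of 0.03 on day 8 as well. The 11 import genes had medians of 0.02 and 0.04. The 12 regulators of mitochondrial genes were rare, and 8 were compared on day 8, with a median of -0.08 and 0 past the threshold, Yy1 at -0.05, Ppargc1a at -0.11 and Tfam at -0.31. On days 0 and 2 Ppargc1a was lower past the threshold, at -0.65 and -0.89. Yy1 was at -0.22 and 0.02 on those days and Tfam at 0.08 and 0.05.

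Per cell, the share of UMIs on the 71 genes was measured after each cell had been thinned to 3000 UMIs, which left out 765 of 2965 cells in the day 8 library labelled Kmt2d+/βgeo and at most 23 in any other. The median share was 4.17%, 4.23%, 4.87% and 4.77% over the days in wild type and 4.63%, 3.50%, 4.37% and 5.67% under the Kmt2d+/βgeo label. On day 2 the quartiles of cells ran from 3.17% to 3.90% under that label and from 3.77% to 4.73% in wild type, and the upper quartile of the first lay below the median of the second. On day 8 it ran from 5.03% to 6.33% and from 4.30% to 5.27%. The variance between cells was 3.22 to 5.37 times that of binomial counting. Unthinned medians were 3.51% and 4.20% on day 2 and 5.40% and 4.78% on day 8. Free RNA was not measured.

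On day 0, cells with at least 1 Top2a UMI, the marker of late cell cycle stages that was in the matrix, could be set beside the rest. After thinning, 1621 cells of each label had one. The 71 genes took 4.14% of their UMIs in wild type, against 4.29% in the 3236 cells without, and 4.49% against 4.76% in 2687 cells under the Kmt2d+/βgeo label. The standard deviations between cells were 0.64 to 0.79 percentage points. The log2 ratio of the shares was -0.052 in wild type and -0.084 under the other label, and in unthinned cells -0.016 and -0.047. After thinning, 45 of the 71 genes were lower in the cells with Top2a in both labels, where 42.9% of all 7115 genes compared were, and 8 were higher in both, where 34.6% were. The 8 held 3 of the 6 assembly factors, Ndufaf2, Ndufaf5 and Ndufaf6, and also Ndufab1, Ndufa5, Ndufa10, Ndufb4 and Atp5g2. Ndufaf2 had log2 ratios of 0.49 in wild type and 0.47 under the Kmt2d+/βgeo label, at 0.471 against 0.335 and 0.689 against 0.498 normalised counts. On later days Top2a UMIs were found in 22 to 92 thinned cells per library, and the split was not used there.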

How the data were processed

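Single-cell RNA was sequenced from 8 libraries, 1 for each genotype label and day. Per the labels and the study's methods, the authors quantified 10x 3′ reads with alevin (Salmon 1.3.0) on GRCm38, kept spliced counts, removed low-quality cells, outliers by doublet score, mitochondrial genes and rare genes, and scaled by library size with scuttle. The submitters' processing notes also name Seurat 3.2.2. The deposited matrix holds log2 values of a normalised count plus 1. These were turned back into normalised counts, which sum to 8707.14 in each cell, and the commonest value of a cell was taken as 1 UMI. Of the nonzero values, 86.8% came within 0.01 of a whole number of such UMIs. The estimated counts rest on the deposited values in this way.

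A level is the mean normalised count of a library. Genes whose level reached 0.1 in 1 of the libraries compared were kept, and ratios were called at a log2 ratio of 0.5. Intervals at 95% are exact (Poisson, conditional binomial or Clopper-Pearson). Python 3.11.15, numpy 2.4.6, pandas 2.3.3, scipy 1.17.1, matplotlib 3.10.9, R 4.3.3 and limma 3.58.1 were used, and the ratios, intervals and the limma fit with day as a block were tested on simulated data. Alternatives covered scaling, thinning, thresholds and length. The largest called changes of each comparison were named, at most 5 each way, with the 3 most abundant of each group and the pairs of related subunits. Others were named after their values were seen, among them Ndufv1, Atp5a1 and Cox6c, as were the core and head sets, the length definition and bins, and Luzp2. The members and lists were chosen with earlier results of these data known. Of the genes counted, 1 is not reported by name here.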

Additional observations from a re-analysis of the deposited data

Results flagged for a closer look

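The summed level had a different sign in the 2 labels on days 2 and 4 after growth factor withdrawal. From day 0 to day 2 it moved by 0.024 on the log2 scale in wild type and by -0.38 under the Kmt2d+/βgeo label. The wild-type value turned to -0.013 with mean log2 values, -0.075 without ribosomal protein genes, -0.035 scaled to total UMIs and -0.015 as the length-centred median, so its sign depends on the setting. From day 0 to day 4 it moved by 0.22 and -0.059, and the second value was 0.032 as the median centred by the longest transcript. The comparison of the labels also turned with the day, at 0.13 on day 0, -0.27 on day 2, -0.14 on day 4 and 0.16 on day 8. The day 4 library labelled Kmt2d+/βgeo, whose Luzp2 level was 0.0502, stands behind 2 of these values.

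Of single genes, 4 moved past 0.5 in opposite directions in the 2 labels, 2 by day 2, where 8 of all 7303 genes compared did, and 2 by day 8, where 31 of 7572 did. Atp5k went by 0.51 in wild type and by -1.49 under the Kmt2d+/βgeo label from day 0 to day 2, and Ndufa1 by 0.63 and -0.79. Ndufs1 went by 0.60 and -0.52 from day 0 to day 8, and Ndufaf7 by 0.56 and -0.56. None of these differences between the labels on single days was tested, since each rests on 1 library per group, and a library, a culture and a label cannot be told apart.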

How the results depend on the processing

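The summed log2 ratios were, in order, for the labels on days 0, 2, 4 and 8, for days 2, 4 and 8 against day 0 in wild type and for the same days under the Kmt2d+/βgeo label, 0.13, -0.27, -0.14, 0.16, 0.024, 0.22, 0.18, -0.38, -0.059 and 0.21. With the difference in mean deposited log2 values, averaged over the 71 genes, in their place they were, in the same order, 0.12, -0.20, -0.097, -0.14, -0.013, 0.17, 0.096, -0.33, -0.041 and -0.16, with the sign turned for the labels on day 8, wild-type day 2 and Kmt2d+/βgeo day 8. With summed estimated UMIs they were, in the same order, 0.14, -0.28, -0.14, 0.20, 0.043, 0.23, 0.19, -0.37, -0.042 and 0.25. With cells thinned to 3000 UMIs they were 0.24 for the labels on day 8, -0.063 for the Kmt2d+/βgeo day 4 and 0.29 for the Kmt2d+/βgeo day 8, and the others moved by less than their counting interval. With the 50 most abundant genes left out of the denominator they were, in the same order, 0.14, -0.25, -0.16, 0.14, 0.046, 0.20, 0.18, -0.34, -0.10 and 0.18. With cytosolic ribosomal protein genes left out of it they were, in the same order, 0.14, -0.27, -0.15, 0.21, -0.075, 0.059, -0.0078, -0.48, -0.23 and 0.064, with the sign turned for wild-type day 2 and wild-type day 8. Scaled to total UMIs they were, in the same order, 0.20, -0.20, -0.19, 0.19, -0.035, 0.21, 0.28, -0.43, -0.19 and 0.26, with the sign turned for wild-type day 2. Centred on the median of all genes they were, in the same order, 0.17, -0.27, -0.19, 0.15, 0.017, 0.12, 0.14, -0.44, -0.23 and 0.099. Without Cox8a they were, in the same order, 0.13, -0.26, -0.14, 0.13, 0.031, 0.22, 0.18, -0.36, -0.059 and 0.17. As the length-centred median over genes they were, in the same order, 0.088, -0.23, -0.064, -0.14, -0.015, 0.13, 0.073, -0.41, -0.022 and -0.16, with the sign turned for the labels on day 8, wild-type day 2 and Kmt2d+/βgeo day 8. With the longest transcript in its place they were, in the same order, 0.089, -0.26, -0.065, -0.10, 0.027, 0.17, 0.095, -0.41, 0.032 and -0.026, with the sign turned for the labels on day 8, Kmt2d+/βgeo day 4 and Kmt2d+/βgeo day 8.

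Genes past 0.5 numbered 7, 16, 5, 19, 6, 21, 28, 31, 8 and 35 in that order. With the difference of mean log2 values they numbered 1, 10, 4, 12, 2, 17, 17, 24, 1 and 21. At a log2 ratio of 1 they numbered 0, 5, 0, 5, 1, 3, 3, 11, 1 and 9. Without ribosomal protein genes the count was 16 for the Kmt2d+/βgeo day 4. Scaled to total UMIs the count was 14 for the Kmt2d+/βgeo day 4. Centred on all genes the count was 16 for the Kmt2d+/βgeo day 4. Centred by length the count was 4 for the labels on day 0. Other alternatives, among them a minimum level of 0.5 or none, kept each count within 1.5 times. Without day 4 the wild-type span was 0.57 percentage points, and 4 genes instead of 0 were higher under the Kmt2d+/βgeo label on each day. The Top2a split on day 0 gave -0.047 under that label and -0.016 in wild type in unthinned cells, against -0.084 and -0.052. The causes of these moves were not tested. The length centrings, the longest transcript and the count without day 4 were chosen after the data were seen. Depth limits the assembly factors most, with 172 UMIs in the smallest case. With day as a block the paired mean of the labels was -0.032, and 0.0059 without day 4, and limma called 0 of the 71 genes with and without day 4; this test was also added after the data were seen. Each group holds 1 library, so no replicate number could serve as a block and no replicate could be left out.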
